A study of Mus musculus with 34 samples.

Results

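Glutathione peroxidases, superoxide dismutases and catalase are the enzymes that dispose of superoxide and peroxides, and 9 genes encoding them were followed here: Gpx1, Gpx3, Gpx4, Gpx7, Gpx8, Sod1, Sod2, Sod3 and Cat. They were taken by gene symbol and make up 9 of the 23951 genes listed in each expression file, and all 9 passed the filter on low values in every comparison. RNA was sequenced from the hippocampus of 4 control mice (Hdac1f/f), 5 Hdac1 cKO mice (Hdac1f/f, Nestin-Cre), 6 5XFAD mice (Hdac1f/f, 5XFAD) and 5 compound mice (Hdac1f/f, Nestin-Cre, 5XFAD), 1 library per sample. GFAP+ nuclei sorted from the cortex of control mice (Hdac1f/f, 3 samples) and Hdac1 cKO mice (Hdac1f/f, Nestin-Cre, 4 samples) were sequenced as well. All animals were 13 months old by the study's account, and the labels of the control and Hdac1 cKO hippocampal samples give 13 to 14 months. Every group, the controls included, carries the floxed Hdac1 alleles. Nestin-Cre is active in neural progenitors, so that Hdac1 is deleted in the neurons and astrocytes that descend from them but not in microglia, and the 5XFAD transgenes, which model amyloid pathology, are expressed from a neuronal Thy1 promoter.

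The study asked how the loss of HDAC1, a histone deacetylase that it links to the repair of oxidized DNA, alters gene expression in the aging brain and in a model of amyloid pathology, and antioxidant genes were among the groups it examined. Superoxide dismutases turn superoxide into hydrogen peroxide, in the cytosol (Sod1, with copper and zinc), in the mitochondrial matrix (Sod2, with manganese) and outside the cell (Sod3). Catalase, in peroxisomes, and the glutathione peroxidases then reduce hydrogen peroxide or lipid peroxides. Gpx1, Gpx3 and Gpx4 are selenoproteins, whereas Gpx7 and Gpx8 are enzymes of the endoplasmic reticulum that carry cysteine in place of selenocysteine.

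Values are FPKM, fragments per kilobase of transcript scaled to the number of mapped reads, as deposited. The hippocampal libraries hold 3′ ends of transcripts, so dividing by transcript length lowers the level of a long transcript relative to a short one, and levels of different genes are set side by side only as FPKM. Relative depth, read from the smallest steps between FPKM values, spanned 0.754 to 2.35 times that of control 1 in the hippocampus and 0.869 to 1.26 times in the nuclei, and the files give no read totals. Hdac1, the deleted gene, ranged from 5.91 to 10.7 FPKM in control and from 6.10 to 9.64 in 5XFAD mice, against 2.36 to 3.03 in Hdac1 cKO and 1.15 to 2.52 in compound mice. In the nuclei Hdac1 was 14.5, 9.91 and 22.3 FPKM in controls 1, 3 and 4 and 9.71, 11.5, 5.80 and 8.73 in Hdac1 cKO samples 1 to 4. These groups overlapped, with 3 of 4 Hdac1 cKO samples below every control. The log2 fold change was -0.70 (95% confidence interval -1.32 to -0.08, adjusted p = 0.984 from limma). Ttr, the transthyretin gene, which choroid plexus epithelium expresses at very high levels, was spread from 53.8 to 20150 FPKM over the 20 hippocampal libraries and was 576, 17490, 20150 and 12900 FPKM in controls 1 to 4. In Hdac1 cKO mice 1 to 5 Ttr was 106, 72.4, 105, 56.5 and 1608 FPKM, and 4 of these 5 were below every control. Genotype and Ttr thus largely coincide between these groups, and a fit of that contrast with Ttr added cannot tell them apart. Control 1 stands apart from the other controls in Ttr, and results that rest on it are given without it. The sample labels describe the source of the control and Hdac1 cKO hippocampi and that of the 5XFAD and compound hippocampi in different words, and whether the libraries of these pairs of groups were prepared together is not given in the sources used here, so for comparisons between these pairs a preparation batch and the transgenes cannot be told apart. The comparisons also share groups, the control mice above all, and their results are given side by side.

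The 9 genes covered a wide range of levels in the hippocampus. Sod1 had the highest mean over the 20 libraries (1146 ± 99.5 FPKM, SD), followed by Gpx4 (505 ± 46.8) and Gpx1 (173 ± 35.9), and the ranges of these 3 genes did not overlap. Sod2 came next at 28.1 ± 2.98 FPKM. Gpx8 (12.9 ± 11.03), Cat (9.82 ± 2.12), Gpx7 (7.73 ± 2.70), Gpx3 (5.62 ± 2.09) and Sod3 (2.22 ± 1.08) followed, and neighbours in this lower part of the order overlapped. The spread of Gpx8, nearly as large as its mean, was wider relative to its level than that of any other member. The FPKM values of the 5 scarcest members are whole multiples of a smallest step, which recovers 8 to 51 fragments per hippocampal library for Sod3, 17 to 68 for Gpx3, 14 to 79 for Gpx7, 7 to 193 for Gpx8 and 36 to 213 for Cat.

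Gpx1, the main cytosolic glutathione peroxidase (chr9:108241607-108242671, plus strand; positions here are those of the mm9 annotation), was at 133, 159, 196 and 166 FPKM in controls 1 to 4. Hdac1 cKO mice 1 to 5 had 140, 163, 149, 132 and 133 FPKM, and compound mice 1 to 5 had 235, 206, 215, 244 and 155 FPKM. The 6 5XFAD mice lay between 137 and 209 FPKM with a median of 167. Of the 5 compound mice, 4 were thus above every Hdac1 cKO and every control mouse, and compound mouse 5 fell within the range of both.

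Gpx4, which reduces lipid hydroperoxides within membranes (chr10:79509911-79519184, plus strand), was the steadiest of the peroxidases. It was at 549, 531, 586 and 467 FPKM in controls 1 to 4, from 464 to 545 in the Hdac1 cKO mice and at 479, 503, 479, 566 and 478 in the compound mice, and 5XFAD mice ranged from 406 to 569 with a median of 508. The 4 groups overlapped throughout.

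Gpx3, the secreted glutathione peroxidase of plasma and extracellular fluid (chr11:54715955-54723879, plus strand), had 4.90, 7.24, 6.41 and 9.23 FPKM in controls 1 to 4. In Hdac1 cKO mice 1 to 5 it was 4.50, 3.49, 4.30, 3.00 and 2.28 FPKM, so that every Hdac1 cKO mouse was below every control. Compound mice 1 to 5 had 10.04, 4.97, 5.27, 6.25 and 6.32 FPKM, each above every Hdac1 cKO mouse, and the 5XFAD mice were spread across both, from 3.02 to 7.90 FPKM with a median of 5.66.

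Gpx7 and Gpx8 are the peroxidases of the endoplasmic reticulum, where they act on the peroxide released during disulfide formation. Gpx7 (chr4:108072995-108079566, minus strand) was at 10.3, 8.03, 6.03 and 8.89 FPKM in controls and at 3.43, 8.69, 8.30, 6.50 and 5.93 in Hdac1 cKO mice, and it reached from 5.09 to 15.0 FPKM in compound mice. Gpx8 (chr13:113832971-113836596, minus strand) was at 6.79, 33.2, 40.0 and 32.4 FPKM in controls 1 to 4, at 5.52, 7.05, 4.21, 3.23 and 8.02 in Hdac1 cKO mice 1 to 5 and at 21.8, 7.66, 7.01, 10.1 and 6.73 in compound mice 1 to 5. The 6 5XFAD mice had a lowest value of 1.72, a median of 9.59 and a highest value of 19.6 FPKM. Controls 2 to 4 exceeded all other hippocampal libraries in Gpx8, whereas control 1 lay among the Hdac1 cKO mice. Gpx8 lies within Cdc20b on the opposite strand, shares no exon bases with it, and Cdc20b is listed at 0 in all 27 libraries.

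Among the dismutases, Sod1 (chr16:90220987-90226567, plus strand) was at 1136, 1310, 1243 and 1092 FPKM in controls and at 1068, 1180, 1145, 1099 and 1038 in Hdac1 cKO mice. Sod2 (chr17:13200705-13210985, plus strand) was at 28.1, 32.1, 31.3 and 29.9 FPKM in controls and at 26.9, 30.5, 30.0, 24.6 and 29.5 in Hdac1 cKO mice. Both genes overlapped between all groups, with 5XFAD medians of 1159 and 27.0 FPKM and compound medians of 1113 and 27.7. Sod3, the secreted dismutase (chr5:52755185-52762644, plus strand), was at 1.499, 2.66, 5.36 and 2.95 FPKM in controls, at 2.32, 1.35, 1.77, 1.61 and 0.637 in Hdac1 cKO mice and at 1.57, 2.42, 1.77, 3.79 and 1.43 in compound mice. Control 1 again lay within the Hdac1 cKO range. Cat (chr2:103294006-103325317, minus strand) was at 9.67, 12.7, 14.6 and 9.97 FPKM in controls and at 7.73, 10.01, 7.59, 8.96 and 7.50 in Hdac1 cKO mice, of which only mouse 2 reached the control range. Compound mice had 9.32, 9.98, 6.24, 12.2 and 6.59 FPKM of Cat, and 5XFAD mice ranged from 9.02 to 11.9 with a median of 10.7.

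**Figure D1:**
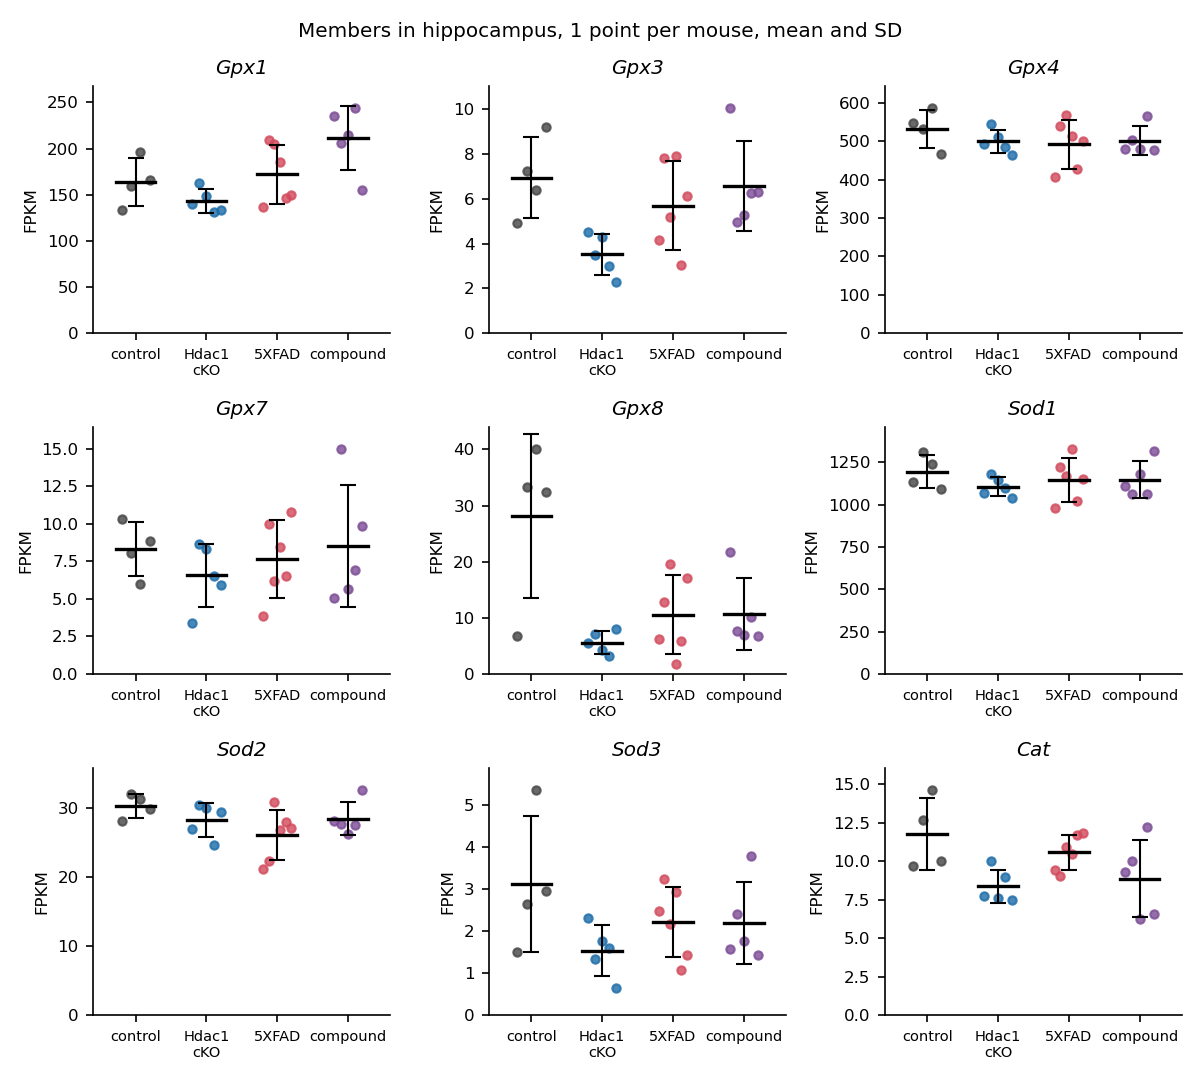
FPKM (vertical axes, from 0) of the 9 genes in the 4 hippocampal groups, 1 point per library, with the mean as a horizontal line and the SD as the error bar. The Gpx3 points of the 5 Hdac1 cKO mice all lie below the 4 control points, and 3 of 4 control points of Gpx8 lie above every other library.

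The study measured an oxidized form of guanine at promoters, with Gpx3 among the genes it chose from these expression data. It picked DEGs whose promoters held binding sites of SP/KLF transcription factors, which are rich in guanine, and had a similar share of guanine. A match in Gpx3 is thus not independent of that choice, and the study's upstream window was longer than the one used here. The promoters of 4 members are therefore shown: Gpx3 and Gpx8, which were DEGs lower in Hdac1 cKO than in control and higher in compound than in Hdac1 cKO mice, Gpx1, which was highest in compound mice, and Sod1, which stayed close to the same level. Each line gives the 250 bases before the start of transcription, 5′ to 3′ on the strand of the gene, from RefSeq (GRCm38.p6, another build than that of the expression files), with matches to the GC box core GGGCGG on either strand in capitals.

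Gpx3 promoter, chr11:54902604-54902853, plus strand: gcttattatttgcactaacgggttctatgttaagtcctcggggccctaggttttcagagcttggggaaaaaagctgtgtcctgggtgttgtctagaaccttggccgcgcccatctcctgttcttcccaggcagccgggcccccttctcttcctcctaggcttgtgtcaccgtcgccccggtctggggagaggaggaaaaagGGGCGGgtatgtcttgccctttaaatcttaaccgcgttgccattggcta

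Gpx8 promoter, chr13:113046389-113046638, minus strand: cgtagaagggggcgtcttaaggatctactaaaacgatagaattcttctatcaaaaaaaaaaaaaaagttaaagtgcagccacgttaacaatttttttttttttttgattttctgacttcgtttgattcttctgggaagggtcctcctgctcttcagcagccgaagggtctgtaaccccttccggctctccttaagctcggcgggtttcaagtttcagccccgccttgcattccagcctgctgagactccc

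Gpx1 promoter, chr9:108338830-108339079, plus strand: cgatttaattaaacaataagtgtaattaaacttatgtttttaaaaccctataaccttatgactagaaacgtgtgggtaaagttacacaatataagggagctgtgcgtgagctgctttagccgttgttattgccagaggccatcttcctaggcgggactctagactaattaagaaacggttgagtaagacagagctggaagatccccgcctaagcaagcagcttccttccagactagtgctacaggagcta

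Sod1 promoter, chr16:90220512-90220761, plus strand: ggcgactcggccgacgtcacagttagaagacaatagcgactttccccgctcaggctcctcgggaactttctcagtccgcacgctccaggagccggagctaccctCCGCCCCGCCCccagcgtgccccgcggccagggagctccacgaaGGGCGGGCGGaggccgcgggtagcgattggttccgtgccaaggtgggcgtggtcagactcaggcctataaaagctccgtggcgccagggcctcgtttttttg

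The core was found once in Gpx3, 4 times in Sod1 and not in Gpx8 or Gpx1, where 32.7% of 32851 promoters of this length held at least 1 match. Sod2 had 4 matches, Cat and Gpx7 1 each, and the 4 annotated starts of Gpx4 had 0, 2, 2 and 1, and 8 of the 9 genes, all but Sod3, matched an entry. The longer GC box GGGGCGGGG, which contains the core, was found once in Sod1 and once in Sod2 (10.4% of all promoters), and the core of the antioxidant response element TGACNNNGC once in Sod1 and in none of the other 7 genes searched (10.2% of all promoters). Guanine made up 28% of the Gpx3, 20.4% of the Gpx8, 22.4% of the Gpx1, 32.4% of the Sod1 and 36.8% of the Sod2 stretch on the strand of the gene, with a median of 26% over all promoters. Gpx3 and Gpx8 thus lay on either side of that median. These matches are descriptions of the letters in these windows.

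Loss of Hdac1 went with lower levels of 3 of the 9 genes in the hippocampus. Gpx3, Gpx8 and Sod3 were differentially expressed genes (DEGs, which here changed 1.5-fold or more with an unadjusted limma p below 0.05), all lower in Hdac1 cKO than in control mice, while 2.87% of all 14265 genes tested were DEGs in that direction. Gpx3 fell by 0.81 on the log2 scale (SE 0.19), with an unadjusted p of 0.00114 and an adjusted p of 0.134 in limma. Gpx8 fell by 1.95 (SE 0.51, limma adjusted p = 0.208) and Sod3 by 0.66 (SE 0.27, limma adjusted p = 0.354). None of the 9 genes passed an adjusted p of 0.05, as 0.154% of all genes did. At an unadjusted p under 0.05 there were 4 members, against 11.7% of all genes. Among them was Cat (log2 fold change -0.43, limma unadjusted p = 0.0091), whose change was under 1.5-fold. With Ttr in the fit the log2 fold change of Cat was -0.335 (limma unadjusted p = 0.214). Gpx3 was the only member whose groups did not overlap, which 2.15% of all genes did in this direction (p = 0.00794 in an exact permutation test, two-sided, which cannot go lower with 4 mice against 5). In the same exact permutation test p was 0.0238 for Gpx8, 0.0317 for Cat and 0.0714 for Sod3.

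All 9 log2 fold changes were negative, with a median of -0.33, against a median of -0.000684 over all genes tested, of which 50.2% were negative. Against the same controls, 8 of 9 were negative in 5XFAD mice (median -0.15) and in compound mice (median -0.09). Of all genes 51.8% and 51.4% were negative there. In Hdac1 cKO mice Gpx7 had -0.33 (95% confidence interval -0.81 to 0.15) and Gpx1 -0.18 (-0.42 to 0.06). Without control 1 the value of Gpx1 was -0.28 (unadjusted p = 0.0199 from limma), and with Ttr in the fit it was -0.004 (unadjusted p = 0.985 from limma). That of Gpx7 was -0.15 without Hdac1 cKO mouse 1 and -0.70 with Ttr in the fit (unadjusted p = 0.0952 from limma). For the abundant enzymes Sod1 (-0.27 to 0.05) and Gpx4 (-0.26 to 0.08) and the mitochondrial Sod2 (-0.30 to 0.10) the intervals included 0 and reached no further than 0.30 below it. All fold changes were computed from log2(FPKM + 1), and the added 1 makes the change of a scarce gene such as Sod3 appear smaller.

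**Figure D2:**
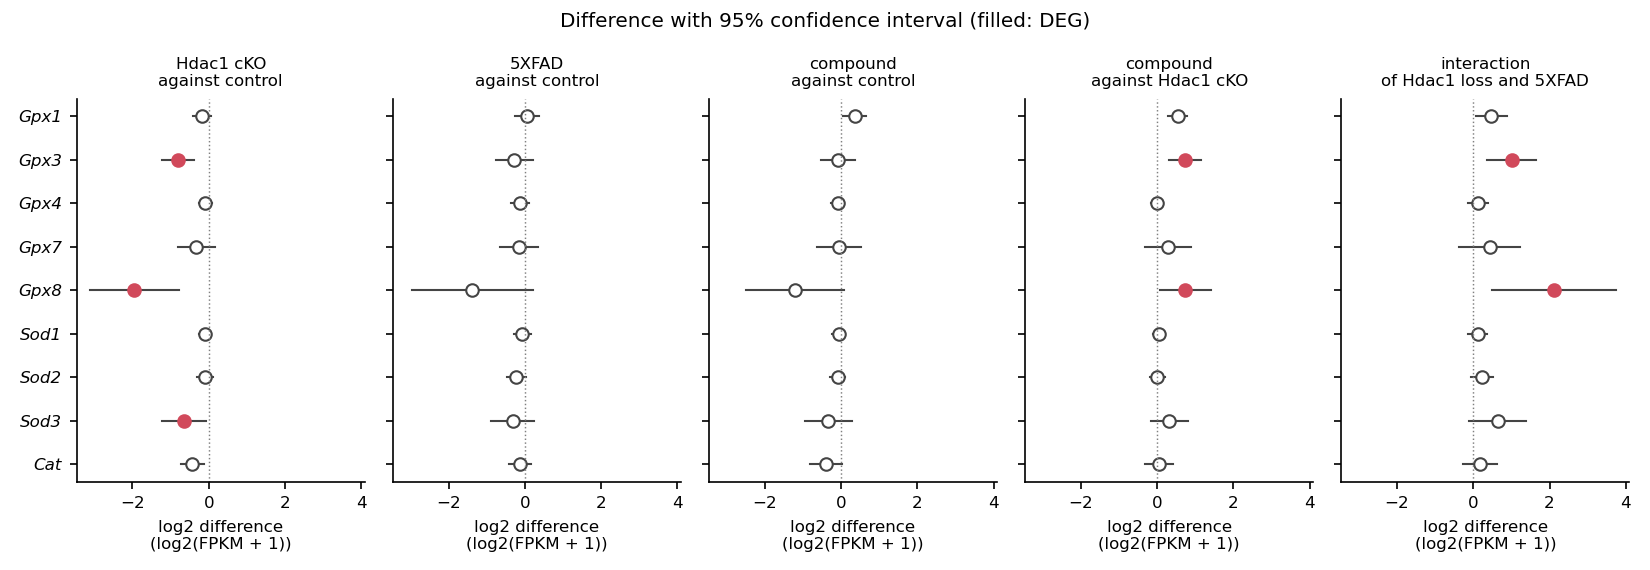
Difference of mean log2(FPKM + 1) (horizontal axes, log2 units) of each member in 5 comparisons, with the 95% confidence interval from limma as a line and DEGs as filled points. Gpx3, Gpx8 and Sod3 are filled on the negative side for Hdac1 cKO against control, and Gpx3 and Gpx8 are filled on the positive side for compound against Hdac1 cKO mice and for the interaction.

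Gene groups other than these enzymes moved with the same contrast. Of 15 markers of choroid plexus epithelium, all 15 were DEGs lower in Hdac1 cKO mice, and their summed level without Ttr ranged from 28.4 to 533 FPKM in controls and from 9.14 to 44.9 FPKM in Hdac1 cKO mice. All 7 ependymal markers were lower too, with sums from 154 to 364 and from 83.4 to 136 FPKM. Of 6 fibroblast or meningeal markers tested, 2 were DEGs lower in Hdac1 cKO mice (median log2 fold change -0.43), and 2 were lower in compound than in control mice. None of the choroid plexus and ependymal markers was at 0 in every library. The part of these cell types in the lower levels of the 3 members was examined only through Ttr. The log2 fold change of Ttr itself in this contrast was -5.57, so the fit with Ttr cannot tell its share from that of genotype. With log2(Ttr FPKM + 1) added to the fit, the log2 fold change of Gpx8 was -0.19 (unadjusted p = 0.674 from limma) and that of Sod3 -0.50 (unadjusted p = 0.323 from limma), neither a DEG, while Gpx3 had -0.78 (unadjusted p = 0.048 from limma) and kept its call. In bulk tissue, fewer cells of a type and less RNA per cell cannot be told apart. Without control 1 the log2 fold changes of Gpx3, Gpx8 and Sod3 were -0.95, -2.50 and -0.87, each larger than with it. Over all genes, DEGs lower in Hdac1 cKO mice then went from 409 to 566, and genes past an adjusted p from 22 to 290. The controls that remain all have more Ttr than any Hdac1 cKO mouse, so genotype and Ttr cannot be told apart there. The call of Sod3 was lost without control 3 (-0.42, unadjusted p = 0.113 from limma). It was also lost without control 4 (-0.65), Hdac1 cKO mouse 2 (-0.64) or mouse 5 (-0.51), with unadjusted p from 0.0529 to 0.0738 in limma.

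In 5XFAD mice no member was a DEG against controls, where 2.95% of 14402 genes were, none passed an adjusted p (0.708% of all genes did), and none had an unadjusted p under 0.05 in limma (10.7% of all genes did). The Thy1 rows (1563 to 2076 FPKM against 303 to 315 in controls) and Gfap (81.3 to 118 against 23.5 to 26.6), a marker of reactive astrocytes, marked these mice clearly. Of the members Gpx8 had the widest difference, a log2 fold change of -1.38 with a 95% confidence interval from -2.97 to 0.21, and 3 of 6 5XFAD mice were below every control. Without control 1 it was a DEG (-1.93, unadjusted p = 0.0165 from limma). Sod2 had -0.22 (-0.46 to 0.02), with 5 of 6 5XFAD mice below every control and the remaining one, at 30.9 FPKM, within their range. The intervals of Gpx1 (-0.25 to 0.38), Gpx4 (-0.36 to 0.12), Sod1 (-0.28 to 0.15) and Cat (-0.41 to 0.16) all include 0 and exclude a change of 1.5-fold in either direction. With Ttr in the fit the difference of Gpx8 was -0.63 (unadjusted p = 0.152 from limma). Of 7 ependymal markers 4 were DEGs lower in 5XFAD mice. None of the 15 choroid plexus markers was a DEG, although their median log2 fold change was -1.37, and 7 of 8 microglial markers were higher.

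In compound mice no member was a DEG against controls either, while 4.24% of 14348 genes were and 0.662% passed an adjusted p. Only Gpx1 had an unadjusted p under 0.05 (10.5% of all genes did), with a log2 fold change of 0.36 (95% confidence interval 0.06 to 0.67, unadjusted p = 0.0239 and adjusted p = 0.378 from limma), below the fold threshold, and 4 of 5 compound mice were above every control. Without control 1 that value was 0.27 (unadjusted p = 0.0839 from limma), and with Ttr in the fit it was 0.62 (unadjusted p = 0.00158 from limma), a DEG. Gpx8 had a log2 fold change of -1.21 (-2.48 to 0.07, unadjusted p = 0.0603 from limma), and it became a DEG without control 1 (-1.76) or without compound mouse 1 (-1.48), in which Ttr was 13910 FPKM against 58.9 to 265 in the other compound mice. With Ttr in the fit the difference of Gpx8 was 0.04 (unadjusted p = 0.884 from limma). Gpx3, lower in Hdac1 cKO mice, had a difference of only -0.08 (-0.53 to 0.37) between compound and control mice. That difference was 0.36 with Ttr in the fit (unadjusted p = 0.104 from limma), and from -0.22 to 0.05 with each library left out in turn. Of 15 choroid plexus markers, 9 were DEGs lower in compound mice, as were 2 of 7 ependymal markers. DEGs higher in compound mice were 7 of 8 microglial and 2 of 9 astrocyte markers (median log2 fold change of the latter 0.27). The part of the microglial and astrocyte markers in these differences was not tested.

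Between compound and 5XFAD mice, which differ in Nestin-Cre, no member was a DEG, where 1.28% of 14326 genes were, and 0.00698% of genes passed an adjusted p. None of the 9 had an unadjusted p under 0.05 in limma (6.61% of all genes did). Gpx1 came closest (log2 fold change 0.30, 95% confidence interval -0.01 to 0.60). Gpx3 had 0.20 (-0.27 to 0.66), Gpx8 0.17 (-1.02 to 1.36), Sod3 -0.01 (-0.49 to 0.47) and Cat -0.26 (-0.59 to 0.07). With each library left out in turn, the difference of Gpx3 ranged from 0.05 to 0.29. That of Gpx8 ranged from -0.19, without 5XFAD mouse 4, to 0.40. Whether these differences depart from those between Hdac1 cKO and control mice is what the interaction tests. With Ttr in the fit Gpx1 had 0.37 (unadjusted p = 0.0244 from limma) and Gpx8 0.66 (unadjusted p = 0.0593 from limma).

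Gpx1, Gpx3 and Gpx8 were higher in compound than in Hdac1 cKO mice, which share Nestin-Cre and differ in the 5XFAD transgenes. Gpx1 was higher by 0.54 on the log2 scale (SE 0.11, limma adjusted p = 0.0315, where 1.49% of 14195 genes passed), and it was the only one of the 9 to pass the adjusted p (p = 0.0159 in an exact permutation test, two-sided, with 1 compound mouse within the Hdac1 cKO range). Its fold change of 1.46 was under the DEG threshold of 1.5 and rose above it without Hdac1 cKO mouse 2 (log2 fold change 0.59) or without compound mouse 5 (0.65). Gpx3 (log2 fold change 0.73, SE 0.19, limma adjusted p = 0.0959) and Gpx8 (0.74, SE 0.30, limma adjusted p = 0.408) were DEGs higher in compound mice, as 2.94% of all genes were. For Gpx3 the groups did not overlap (2.44% of all genes in this direction, p = 0.00794 in the same exact permutation test). Gpx8 had p = 0.0714 in that exact permutation test. At an unadjusted p under 0.05 there were 3 members, against 10.3% of all genes. Gpx8 lost its call without compound mouse 1 (0.47, unadjusted p = 0.0501 from limma). It also lost it without compound mouse 4 (0.72), Hdac1 cKO mouse 3 (0.67) or mouse 4 (0.59), with unadjusted p from 0.0568 to 0.0774 in limma. All 9 differences were positive, with a median of 0.28 against -0.00962 over all genes, although those of Gpx4 (0.003), Sod2 (0.01), Cat (0.05) and Sod1 (0.05) were close to 0. Beside these values, the summed level of 8 microglial markers was 242 to 311 FPKM in Hdac1 cKO and 1009 to 2077 FPKM in compound mice, 7 of the 8 being DEGs and none at 0 in every library, and 0 of 13 choroid plexus markers tested were DEGs. Of 9 astrocyte markers 2 were DEGs higher in compound mice (median log2 fold change 0.23), and Gfap was 23.4 to 32.0 FPKM in Hdac1 cKO and 89.0 to 176 FPKM in compound mice. The part of the microglial and astrocyte markers in the results was not tested. With Ttr in the fit Gpx1 had 0.51 (unadjusted p = 0.000955 from limma), Gpx3 had 0.68 and kept its call, and Gpx8 had 0.51, under the fold threshold.

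The interaction of Hdac1 loss and 5XFAD, which tests whether the effect of Hdac1 loss differs with the transgenes, was past the thresholds for Gpx3 and Gpx8. Gpx3 had an interaction of 1.01 (SE 0.31, unadjusted p = 0.00396 and adjusted p = 0.375 from limma) and Gpx8 of 2.12 (SE 0.77, unadjusted p = 0.0139 and adjusted p = 0.448 from limma), as 2.69% of 14389 genes were in this direction. Gpx1 had 0.48 (unadjusted p = 0.0221 from limma), so that 3 members had an unadjusted p under 0.05 (8.97% of all genes) and none passed an adjusted p, which 0% of all genes did. In Gpx3 the effect of Hdac1 loss was -0.81 without and 0.20 with the 5XFAD transgenes, in Gpx8 -1.95 and 0.17, and in Gpx1 -0.18 and 0.30. With Ttr in the fit the interactions of Gpx3 and Gpx8 were 0.81 and 1.18 and still past the thresholds, and that of Gpx1 was 0.36 (unadjusted p = 0.0827 from limma). Without control 1 the interactions of Gpx3, Gpx8 and Gpx1 were 1.14, 2.67 and 0.57. Sod3 had 0.64 (-0.11 to 1.40), which crossed the thresholds without control 1 (0.86, unadjusted p = 0.0259 from limma) and was 0.41 without control 3 and 0.44 with the replicate number as a block. 

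Across the 20 hippocampal libraries, Gpx8 was the member that followed Ttr. Ordered by Ttr, the 3 libraries with the most Ttr, control 3, control 2 and compound mouse 1, had 40.0, 33.2 and 21.8 FPKM of Gpx8, and the 3 with the least, 5XFAD mouse 5, Hdac1 cKO mouse 4 and compound mouse 5, had 5.90, 3.23 and 6.73. Pearson's r of the log2 values was 0.847 (permutation p = 1e-05, the smallest that 100000 permutations can give, adjusted p = 0.00197 over 14388 genes) and Spearman's rho 0.842 (permutation p = 2e-05, adjusted p = 0.00543). Gpx8 was the only member past an adjusted p of 0.05, where 1.33% of all genes were with a positive r. Without controls 3 and 2, the libraries farthest from the median of Ttr, r was 0.796. With group means removed r was 0.823 (permutation p within groups 0.0006, adjusted p = 0.114). In limma with the 4 groups in the fit, Gpx8 rose by 0.26 log2 units per log2 unit of Ttr (standard error 0.04, adjusted p = 0.00282), the only member called, as 0.626% of genes were with a positive slope. Left out in turn, no library moved r outside 0.826 to 0.881. Ttr was spread widely but without a gap above 17.4% of its range on the log2 scale, so the libraries were not split.

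The other 8 genes were less tied to Ttr. Gpx3 had r = 0.538 (permutation p = 0.0141, adjusted p = 0.26) and rho = 0.614 (permutation p = 0.00463, adjusted p = 0.149), and r = 0.504 without the farthest libraries and 0.41 with group means removed. For Cat r was 0.456 (permutation p = 0.0429, adjusted p = 0.411), rho 0.406 (permutation p = 0.0759) and r with group means removed 0.117. For Sod3 r was 0.378 (permutation p = 0.0993), rho 0.487 (permutation p = 0.0307) and r with group means removed 0.127. Values of r were 0.247 for Gpx1 (rho 0.362), 0.181 for Gpx4 (0.275), 0.116 for Sod1 (0.161), 0.0272 for Sod2 (0.173) and -0.0655 for Gpx7 (-0.0316), with adjusted p from 0.749 to 0.98. With group means removed r was 0.404 for Gpx1 (permutation p = 0.133), close to that of Gpx3, and -0.259 for Gpx7. In 5XFAD mouse 4, with 153 FPKM of Ttr, Gpx8 was at its lowest, 1.72 FPKM, while Gpx3 was 7.90 FPKM, the highest of that group, so these genes did not move together there.

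**Figure D3:**
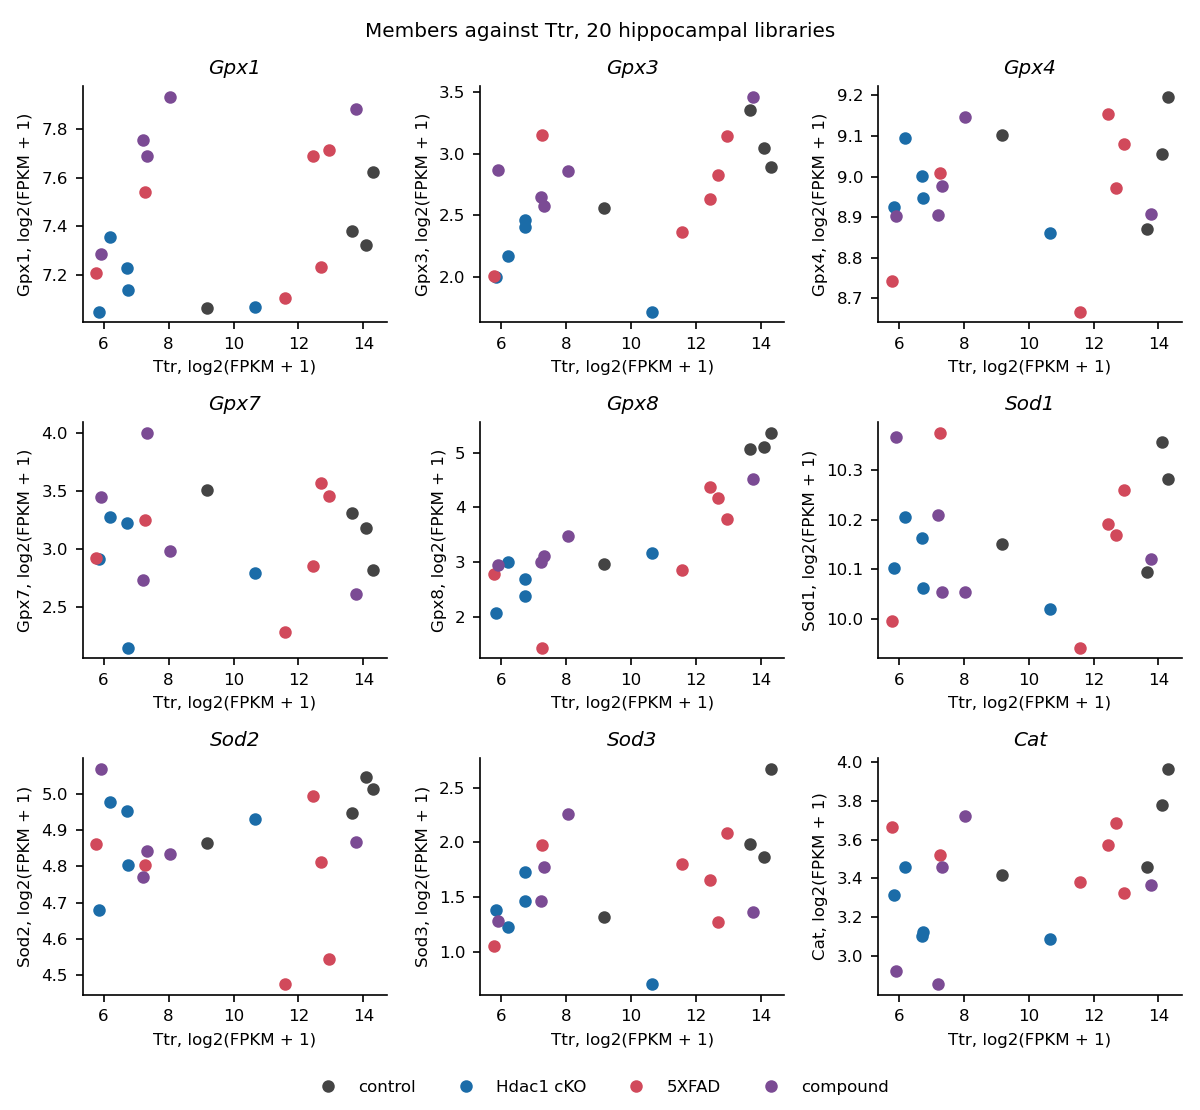
Each member (vertical axes, log2(FPKM + 1), not starting at 0) against Ttr (horizontal axes, log2(FPKM + 1)) in the 20 hippocampal libraries, coloured by group. Gpx8 is higher where Ttr is higher (r = 0.847), while r was 0.116 for Sod1, 0.0272 for Sod2 and -0.0655 for Gpx7.

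The genes whose pattern over the 20 libraries was most like that of a member, of 12994 genes searched, differed from member to member. Gpx8 was closest to Prr32 (Pearson's r = 0.923), to Prlr (0.923), the prolactin receptor and one of the choroid plexus markers, and to Slc2a12 (0.912), a glucose transporter. Gpx3 was closest to Cpt2 (0.812), which imports fatty acids into mitochondria, to the ependymal marker Rarres2 (0.807) and to Spata24 (0.76). Gpx1 was closest to Ftl1 (0.838), the ferritin light chain, Ctsl (0.823), a lysosomal protease, and Hspb6 (0.81). Gpx4 was closest to Rpl24 (0.82), Ndufs8 (0.794) and Rps3 (0.78), components of ribosomes and respiratory complex I. Sod3 was closest to Atp7a (0.773), a copper transporter that supplies secreted enzymes, Sod1 to Fxyd6 (0.765) with the peroxiredoxin Prdx2 among its 3 closest (0.744), Sod2 to Cldn10 (0.827), Cat to Mterfd1 (0.748) and Gpx7 to Nit1 (0.735). Between members, r was highest for Gpx1 with Gpx3 (0.603) and for Gpx3 with Sod3 (0.581), and these were 0.491 and 0.433 with group means removed. The highest values with group means removed were those of Gpx1 with Gpx4 (0.67, against 0.434 before) and of Gpx1 with Sod3 (0.614, against 0.511). The libraries share depth and group differences, so these values are descriptions only.

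Other redox genes, a list of 36 of which 32 passed the filter in the hippocampus, were mostly not called. In Hdac1 cKO mice 2 were DEGs, both lower, as 2.87% of all genes were: Slc31a1, the copper importer (9.46 FPKM in control and 3.58 in Hdac1 cKO mice on average, log2 fold change -1.06, adjusted p = 0.195 from limma), and Nqo1, a target of NRF2 (4.04 and 1.65 FPKM, -0.94, adjusted p = 0.145 from limma). Slc31a1 (-0.67) and Nqo1 (-0.88) were also the only DEGs of the list between 5XFAD and control mice, where 1.23% of all genes were lower. Prdx6, a peroxiredoxin that also reduces phospholipid peroxides, was the only DEG of the list in compound against control mice (173 and 302 FPKM, 0.77, adjusted p = 0.087 from limma), where 2.22% of all genes were higher. Against Hdac1 cKO mice, compound mice were higher in Prdx6 (0.77, adjusted p = 0.0289 from limma), in Nfe2l2, which encodes NRF2 (0.65, adjusted p = 0.238), and in Hmox1, heme oxygenase (0.81, adjusted p = 0.112), where 2.94% of all genes were higher. No gene of the list was a DEG between compound and 5XFAD mice. The interaction was past the thresholds and positive for 5 of 32 (2.69% of all genes), Nqo1 (1.46), Slc31a1 (1.04), Hmox1 (0.90), the copper chaperone Atox1 (0.68) and Prdx1 (0.61), none at an adjusted p under 0.05. Median log2 fold changes of the list were -0.01 in Hdac1 cKO, -0.09 in 5XFAD and 0.002 in compound mice against controls.

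GFAP+ nuclei had another order of levels. Summed over 9 astrocyte markers they held 2979 to 3625 FPKM, against 1159 to 1595 in the hippocampal libraries, and over 8 neuronal markers 196 to 279, against 1620 to 2000. Oligodendrocyte markers summed to 450 to 1223 FPKM in the nuclei and 1008 to 1890 in the hippocampus. Markers of oligodendrocyte precursors (17.6 to 39.4 against 4.67 to 7.67) and of mural cells (122 to 258 against 42.8 to 73.7) were higher in the nuclear libraries. Red blood cell markers summed to 15.41 to 76.35 FPKM in the nuclei and to 0.241 to 20.74 in the hippocampus, ranges that overlapped. The part of these cell types in the levels of the members was not tested. Gpx4 (182 ± 21.4 FPKM, SD, n = 7) and Sod1 (133 ± 16.3) were the highest members, followed by Sod3 (32.0 ± 2.64) and Gpx1 (31.9 ± 9.09), which overlapped. Cat (16.5 ± 3.72), Gpx7 (13.4 ± 4.12), Gpx8 (12.2 ± 3.46) and Sod2 (10.6 ± 2.90) overlapped as well, and Gpx3 was lowest at 1.88 ± 1.47 FPKM. Sod3 was between 28.5 and 35.1 FPKM in every nuclear library and between 0.637 and 5.36 FPKM in every hippocampal one, whereas Sod1 was lower in nuclei (113 to 158 against 983 to 1326 FPKM). Tissue, sorting, nuclear RNA and library method all differ between these sets, so the sources of this difference cannot be told apart and no test was made.

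Within the nuclei, no member was a DEG between Hdac1 cKO and control, where 2.58% of 15070 genes were and 0.0133% passed an adjusted p. One member, Gpx8, had an unadjusted p under 0.05, as 4.7% of all genes did. It was at 11.8, 15.2 and 17.4 FPKM in controls 1, 3 and 4 and at 10.4, 8.90, 13.7 and 7.83 in Hdac1 cKO samples 1 to 4, 3 of which were below every control. Its log2 fold change of -0.51 (95% confidence interval -0.98 to -0.03, unadjusted p = 0.0381 and adjusted p = 0.984 from limma) was just under the fold threshold, and passed it without control 1 (-0.65) or without Hdac1 cKO sample 3 (-0.65). With each of the other 5 samples left out in turn the difference lay between -0.53 and -0.39 with an unadjusted p above 0.05 in limma, as it did with the replicate number as a block (-0.46, unadjusted p = 0.0838). A two-sided exact permutation test gave p = 0.114, and 3 samples against 4 cannot go below 0.0286. Ttr was 10.7, 6.40 and 131 FPKM in the controls and 162, 95.9, 246 and 200 FPKM in the Hdac1 cKO samples, with control 4 within the Hdac1 cKO range. Ttr was thus higher on average in the nuclear group with less Gpx8, and its relation to Gpx8 in the nuclei was not tested.

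Gpx3 in nuclei was 2.22, 4.70 and 0.746 FPKM in controls and 0.587, 0.579, 2.06 and 2.25 in Hdac1 cKO samples, on 6 to 55 fragments, and the groups overlapped (log2 fold change -0.51, 95% confidence interval -1.46 to 0.44). It passed the DEG thresholds without control 4 (-0.94, unadjusted p = 0.0464 from limma), whereas without control 3 the difference was -0.09. Sod3 was 31.2, 28.5 and 31.3 FPKM in controls and 33.9, 29.3, 34.7 and 35.1 in Hdac1 cKO samples, a log2 fold change of 0.13 (-0.17 to 0.43). Its hippocampal interval was -1.24 to -0.08, and whether these changes differ was not tested. Cat was 22.5, 16.9 and 15.9 against 14.2, 10.3, 17.9 and 17.6 FPKM (-0.30, -0.77 to 0.18), and Gpx4 193, 217 and 187 against 168, 149, 174 and 190 FPKM (-0.22, -0.53 to 0.08). Intervals for Gpx1 (-0.80 to 0.28), Gpx7 (-0.66 to 0.50), Sod1 (-0.31 to 0.38) and Sod2 (-0.77 to 0.34) all include 0. Of the 9 differences 7 were negative, with a median of -0.22 against -0.00649 over all genes, and of the other redox genes Sephs2 (-0.82) and Sepsecs (-0.74), both needed to make selenoproteins, were the only DEGs of 33 tested, both lower where 1.34% of all genes were. The study describes nuclei isolated animal by animal, and the labels do not tie each nuclear sample to an animal.

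**Figure D4:**
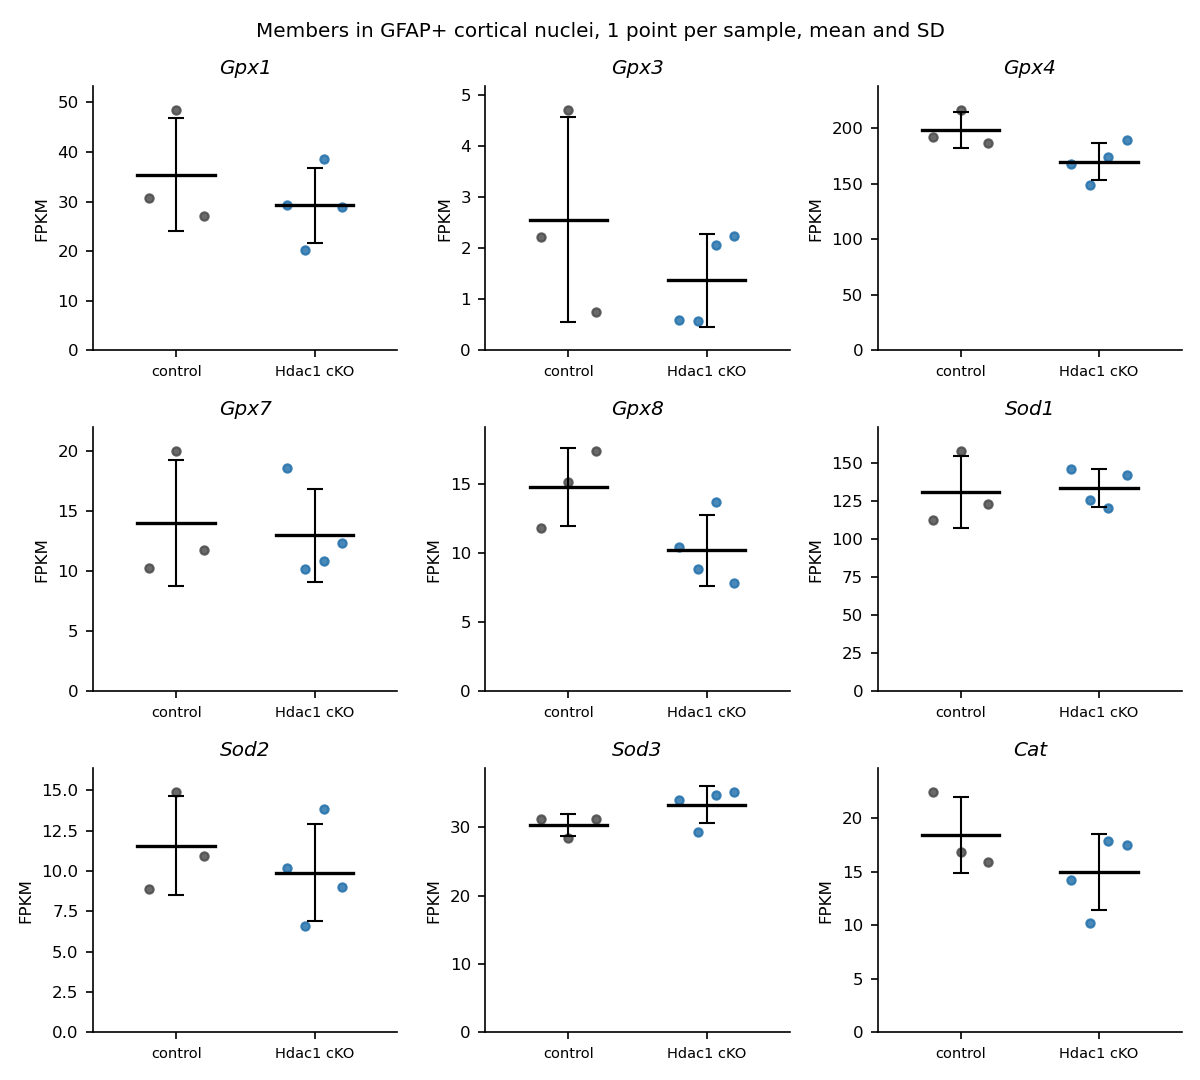
FPKM (vertical axes, from 0) of the 9 genes in GFAP+ cortical nuclei of 3 control and 4 Hdac1 cKO samples, 1 point per sample, with the mean as a horizontal line and the SD as the error bar. The groups overlap in all 9 genes, and 3 of 4 Hdac1 cKO points of Gpx8 lie below every control.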

How the data were processed

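Hippocampal total RNA was sequenced as 3′ Digital Gene Expression libraries and sorted GFAP+ nuclei as SMART-Seq v4 libraries. The authors collapsed reads, aligned them with TopHat to mm9 and computed the deposited FPKM values per gene with Cufflinks 2.0.0, and whether the nuclei were aligned in the same way is not given in the sources used here. Of 34 samples 27 were analysed. The others, GFAP+ control 2 and 6 ChIP-seq libraries, are not used here. The files give no read totals per library, of which the study states only a mean, and relative depth was read from the steps of low values, which also gave whole fragments for scarce genes.

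Groups came from the sample labels. Per comparison, genes averaging 0.5 FPKM or more across its samples were tested on log2(FPKM + 1) with limma 3.58.1 (trend and robust, R 4.3.3), fitting only the groups compared, with Benjamini-Hochberg adjustment over all genes tested. DEGs had a fold change of 1.5 or more and an unadjusted p under 0.05, after the thresholds of the study. Single members were also compared with exact permutation tests (Python 3.11.15 with numpy 2.4.6), and relations to Ttr with 100000 permutations. Named genes were the 9 members, redox genes of the list that were DEGs and the genes most like each member. The members and lists were chosen with earlier results of these data known.

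The scripts were tested on simulated data. Alternatives were a pseudocount of 0.1, no filter, a filter at 1 FPKM, quantile or median scaling, limma without trend and robust, all 4 hippocampal groups in one fit, the ratio of mean FPKM, Ttr or choroid plexus markers as covariate, the replicate number as a block, calls by adjusted p, and leaving out each library.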

Additional observations from a re-analysis of the deposited data

Results flagged for a closer look

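Gpx3 in compound mouse 1, at 10.04 FPKM, lay far above the other 4 compound mice, whose highest value was 6.32 FPKM. Gpx8 in the same library, at 21.77 FPKM, lay far above the others, whose highest value was 10.1 FPKM, and Ttr was 13910 FPKM there. Gpx4 in compound mouse 4, at 566 FPKM, lay above the others, whose highest value was 503 FPKM. These were 3 of 45 groups of values examined for such a gap, of which chance flags about 1 in 20.

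The effect of Hdac1 loss differed between mice with and without the 5XFAD transgenes for 3 members at an unadjusted p under 0.05 in limma, as it did for 8.97% of all genes tested, by 0.477 on the log2 scale for Gpx1, 1.008 for Gpx3 and 2.121 for Gpx8. None of them passed an adjusted p of 0.05, where the lowest of the 3 was 0.375 (limma).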

How the results depend on the processing

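The number of members called between Hdac1 cKO and control mice was 3, and became 1 with Ttr as a covariate, 0 by adjusted p and 2 to 3 when each library was left out in turn. Between 5XFAD and control mice it was 0, and became 1 without trend and robust or with all 4 groups in one fit, and 0 to 1 when libraries were left out. Between compound and control mice it was 0, and became 1 without a filter, without trend and robust, with all 4 groups in one fit (Gpx8 in each) or with Ttr as a covariate (Gpx1), and 0 to 1 when libraries were left out. Between compound and Hdac1 cKO mice it was 2, and became 1 with all 4 groups in one fit, with Ttr as a covariate or by adjusted p, and 1 to 3 when libraries were left out. In the nuclei it was 0, and 0 to 1 when libraries were left out. For the interaction it was 2, and became 0 by adjusted p and 2 to 3 when libraries were left out. Causes of these shifts were not tested. The count of 0 between compound and 5XFAD mice held under every alternative run. Gpx8 remained the only member past an adjusted p in its relation to Ttr with the other pseudocount, quantile normalization, choroid plexus markers in place of Ttr and each library left out, whereas in the correlation with group means removed its adjusted p was 0.114 and no member passed.

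With the replicate number as a block, 2 members were called between Hdac1 cKO and control mice, Sod3 losing its call, and the other counts stayed as they were. Same-numbered samples did not deviate together (correlations from -0.113 to 0.078), so the block pairs no samples. Over 1710 values of single members under the alternatives no called value reversed, 13 lost and 15 gained a call. Depth limits the scarce members, with as few as 7 fragments of Gpx8, 8 of Sod3, 14 of Gpx7 and 17 of Gpx3 in a hippocampal library.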
